A study of Mus musculus with 15 samples.

Results

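Livers that carried mutant β-catenin together with human MET (CTNNB1_MET, 3 libraries) were compared with wild-type livers (WT, 3 libraries). These 6 libraries are all those of their 2 groups among 15 libraries in 5 groups, and all 14098 genes with enough counts, of 24411 listed, were tested. Every library was made from polyA RNA of liver tissue, fresh frozen, of FVB/NJ males. CTNNB1_MET carried S45Y-CTNNB1 and hMET and no added NRF2, and WT carried no transgene. The 3 other models serve here only to show where CTNNB1_MET differs from them: CTNNB1_NFE2L2_MET carried S45Y-CTNNB1, G31A-NFE2L2 and hMET, CTNNB1_NFE2L2 carried both mutants without MET, and NFE2L2_MET carried G31A-NFE2L2 and hMET. The labels give no age, time after transgene delivery, vector or promoter, and do not say whether a library came from tumour, from liver around it or from both. The labels do not tie the libraries of a group to different mice. Each p-value below thus weighs a difference against library-to-library spread, which need not be the spread between mice.

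β-catenin, encoded by Ctnnb1, is the transcriptional arm of the Wnt pathway. A complex that holds AXIN and APC marks it for degradation by phosphorylation that begins at S45, and a change of that residue lets the protein collect in the nucleus, where it acts with TCF and LEF factors. In the normal liver, β-catenin is active in the hepatocytes around the central vein, where it maintains glutamine synthesis and part of drug metabolism, while urea and glucose production lie mainly around the portal vein. MET is the receptor tyrosine kinase for hepatocyte growth factor and signals to the ERK kinases. The mutations that stabilise β-catenin are among the most frequent in human hepatocellular cancer.

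Gene counts per library summed to between 15123917 and 20702618 in CTNNB1_MET and between 14084343 and 17386898 in WT. Unmapped reads made up 17.2 ± 1.75% in CTNNB1_MET and 22.9 ± 3.05% in WT (SD, n = 3 each). The liver label held in all 6 libraries: Alb, the serum albumin gene, stood at 96920, 96155 and 99345 CPM (counts scaled to library size with TMM factors) in CTNNB1_MET, against 43888, 45198 and 63513 CPM in WT. The WT libraries were not alike. Transcripts of fibrillar matrix, a list of 16 collagens and associated proteins, summed to 419, 452 and 452 CPM in CTNNB1_MET and to 1685, 1647 and 469 CPM in WT, so that WT replicates 1 and 2 stood above the other 4 libraries. Cartilage genes followed the same pattern, with sums of 115, 115 and 64.5 CPM in CTNNB1_MET and 422, 446 and 170 CPM in WT. WT replicate 2 further had high acute-phase transcripts, with Saa1 (serum amyloid A) at 216, 201 and 119 CPM in CTNNB1_MET and 46.8, 8052 and 99.3 CPM in WT. Elovl3, a fatty acid elongase, had 25.8, 33.1 and 66.1 CPM in CTNNB1_MET and 111.4, 78.7 and 911 CPM in WT, where replicate 3 stood alone. WT replicate 3 and CTNNB1_MET replicate 3 are also 2 of the 3 libraries of the series whose file labels carry a mark of addition. Several counts below are therefore also given without WT replicates 1 and 2. WT then rests on replicate 3, whose spread is taken to be like that of the other groups.

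**Figure D1:**
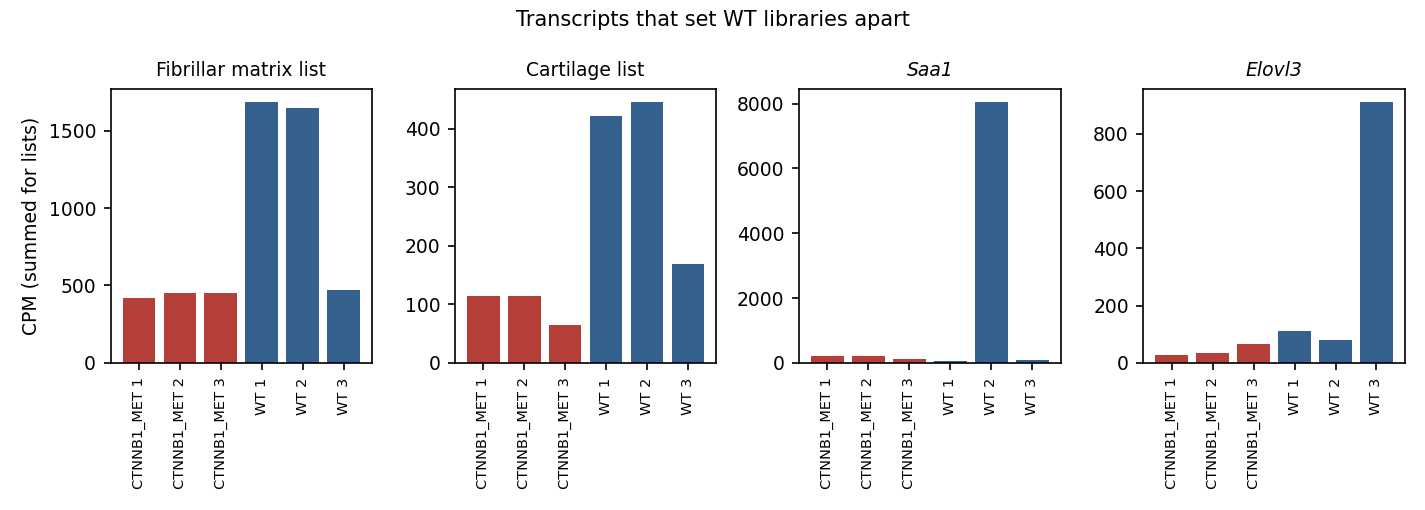
Bars give CPM in each of the 6 libraries, as sums over a list of fibrillar matrix genes and a list of cartilage genes and as single values for Saa1 and Elovl3. WT replicates 1 and 2 stand apart in matrix transcripts (1685 and 1647 CPM), WT replicate 2 in Saa1 (8052 CPM) and WT replicate 3 in Elovl3 (911 CPM).

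The mouse counterparts of the introduced genes were examined next, although counts on the mouse gene need not show a transgene. Ctnnb1 stood at 387, 320 and 310 CPM in CTNNB1_MET, against 243, 259 and 295 CPM in WT. The groups did not overlap, and the log2 fold change was 0.35 ± 0.11 (SE) with an adjusted p of 0.0455 in edgeR's quasi-likelihood test. That call was lost without CTNNB1_MET replicate 1 (adjusted p = 0.205), CTNNB1_MET replicate 2 (0.0686), WT replicate 1 (0.144) or WT replicate 2 (0.11). Met stood at 64.9, 73.0 and 72.2 CPM in CTNNB1_MET and at 53.6, 96.0 and 78.1 CPM in WT, which overlap (log2 fold change -0.12 ± 0.15, adjusted p = 0.641). Nfe2l2, which encodes NRF2, had 62.4, 56.4 and 50.1 CPM in CTNNB1_MET and 56.7, 39.2 and 41.2 CPM in WT and did not pass the test (adjusted p = 0.324).

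At an adjusted p of at most 0.05, 1552 of the 14098 tested genes (11%) were higher in CTNNB1_MET and 877 (6.22%) were lower. Rises were larger than falls: 835 rises (5.92%) and 224 falls (1.59%) were at least 2-fold. Among called genes whose mean log2 CPM reached 3, Gm and Rik symbols aside, the 12 largest rises ran up to a log2 fold change of 9.47. The 12 largest falls ran down to -2.36. The median over all tested genes was -0.0016. The libraries of the groups did not overlap for 2600 genes higher in CTNNB1_MET (18.4%) and for 2006 lower (14.2%). Leaving out CTNNB1_MET replicate 1 lowered the calls to 971 rises and 323 falls, and leaving out WT replicates 1 and 2 lowered them to 916 and 527, of which 763 rises and 293 falls were among the calls with all libraries.

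**Figure D2:**
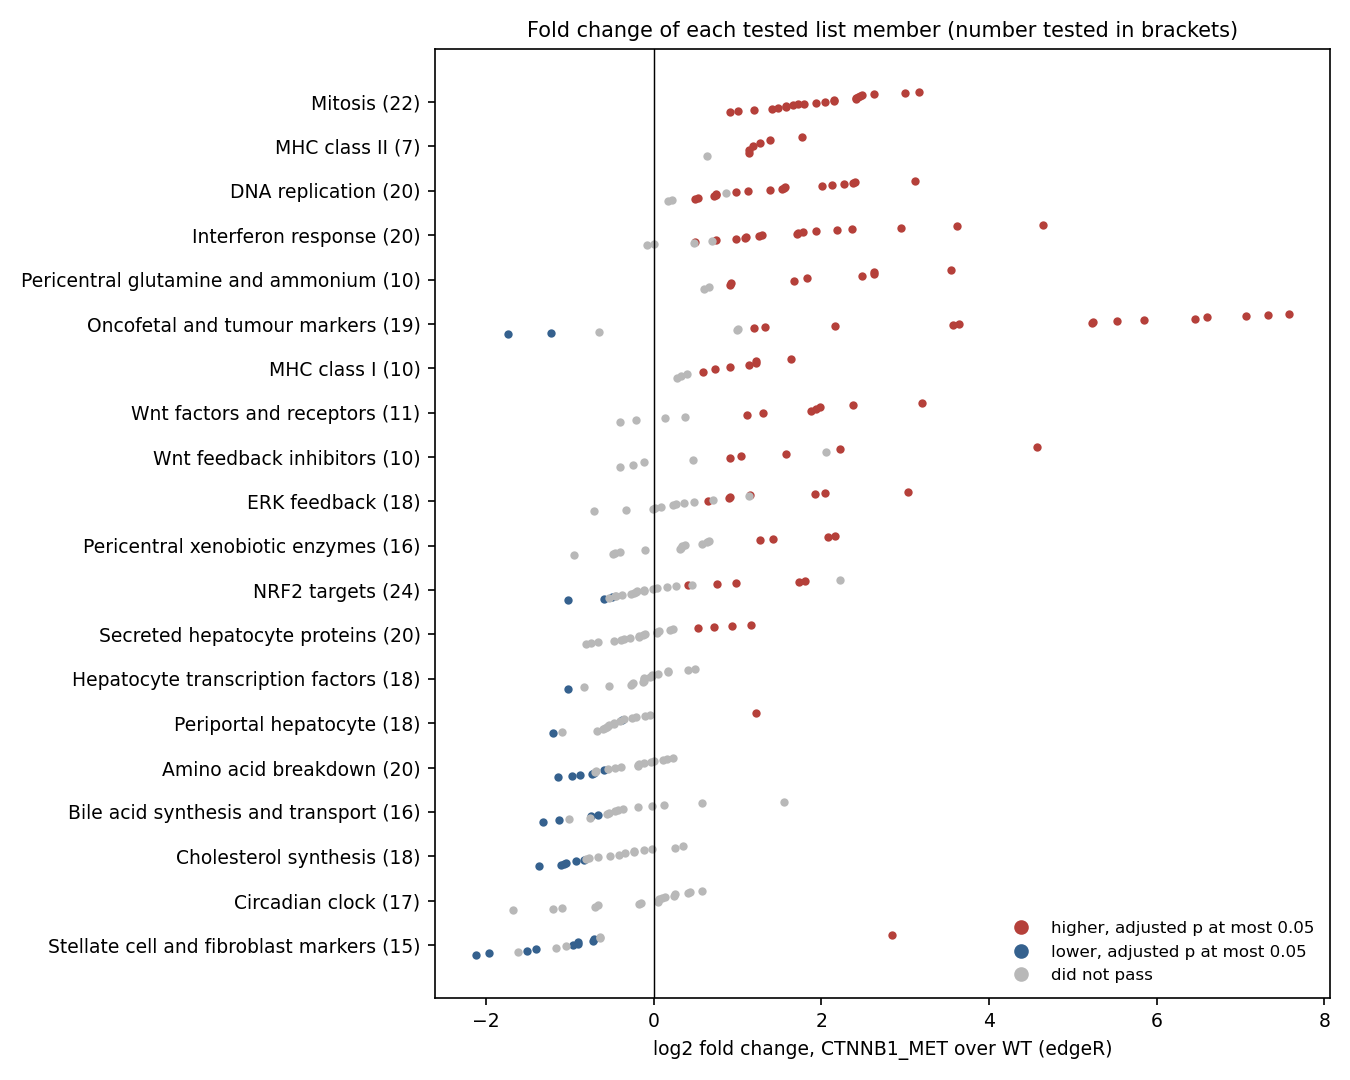
Each point is the log2 fold change of a tested member of a gene list, CTNNB1_MET over WT (x axis), with 1 row per list and the number tested in brackets. Red points are higher and blue points lower at an adjusted p of at most 0.05, and grey points did not pass. All 22 mitosis genes lie to the right, and 9 of 15 stellate cell and fibroblast markers lie to the left as called falls.

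Genes that β-catenin is known to activate as its own brakes rose in part. Of 10 feedback inhibitors 5 rose and 0 fell, with a median log2 fold change of 0.98. Nkd1, which binds Dishevelled and damps the signal, stood at 26.2, 24.1 and 15.7 CPM in CTNNB1_MET and at 5.32, 4.75 and 4.04 CPM in WT (log2 fold change 2.22 ± 0.22, adjusted p = 8.92e-06). Notum, a secreted enzyme that inactivates Wnt proteins, had 122.1, 105.2 and 82.8 CPM in CTNNB1_MET and 48.8, 47.0 and 54.3 CPM in WT (1.05 ± 0.13, adjusted p = 4.02e-05). Rnf43, a ubiquitin ligase that removes Wnt receptors, had 66.0, 53.1 and 44.4 CPM in CTNNB1_MET and 25.4, 14.8 and 14.8 CPM in WT (1.57 ± 0.24). All CTNNB1_MET libraries lay above all WT libraries for these 3 genes. Apcdd1, a membrane inhibitor, rose as well at a low level (log2 fold change 4.57 ± 0.54). Axin2, the scaffold often used as a readout of the pathway, had 18.1, 15.7 and 16.4 CPM in CTNNB1_MET and 9.49, 6.05 and 11.4 CPM in WT (0.90 ± 0.23, adjusted p = 0.0155). Its call was lost without CTNNB1_MET replicate 1 (adjusted p = 0.0639) and without WT replicate 2 (0.053). Znrf3, the partner of Rnf43, averaged 13.7 ± 2.20 CPM in CTNNB1_MET and 9.91 ± 1.26 CPM in WT and did not pass (adjusted p = 0.0838).

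Among transcription factors and receptors downstream of Wnt, 7 of 11 tested rose and 0 fell (median log2 fold change 1.31), and the same number rose in each fit that left out a library. The TCF family members Tcf7 (1.94 ± 0.20) and Lef1 (3.20 ± 0.53) rose, and Lef1 had 2.70, 2.13 and 1.31 CPM in CTNNB1_MET and 0.144, 0.297 and 0.192 CPM in WT. Sp5, a zinc-finger factor, had 7.91, 6.24 and 8.30 CPM in CTNNB1_MET and 2.59, 1.42 and 2.18 CPM in WT (1.87 ± 0.22, adjusted p = 3.75e-05). Lgr5, the R-spondin receptor, had 14.6, 11.6 and 9.14 CPM in CTNNB1_MET and 2.44, 3.20 and 3.21 CPM in WT (1.99 ± 0.26, adjusted p = 0.000123). The groups stood clear of each other for both. Tbx3, a T-box factor, and Tnfrsf19, a receptor of the TNF family, rose by 1.11 ± 0.17 and 2.38 ± 0.35 on the log2 scale. Ccnd1, which encodes cyclin D1, rose by 1.31 ± 0.19, whereas Myc, at 8.28, 7.30 and 5.64 CPM in CTNNB1_MET and 3.81, 8.90 and 3.399 CPM in WT, overlapped between groups (adjusted p = 0.715).

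Genes of glutamine synthesis and of ammonium and anion transport around the central vein mostly rose. Of 10 such genes, with Axin2 counted again, 8 rose and 0 fell, with a median log2 fold change of 1.75. Glul, glutamine synthetase, reached 1984, 1848 and 1575 CPM in CTNNB1_MET, against 594, 594 and 512 CPM in WT (1.67 ± 0.15, adjusted p = 2.1e-06). Rhbg, an ammonium channel, reached 106.5, 78.7 and 76.7 CPM in CTNNB1_MET, against 9.06, 4.98 and 8.47 CPM in WT (3.55 ± 0.22). Slc1a2, a glutamate transporter, reached 518, 472 and 296 CPM in CTNNB1_MET, against 116.8, 111.2 and 135 CPM in WT (1.82 ± 0.19). In all 3 the lowest CTNNB1_MET library was more than 2-fold above the highest WT library. Lect2, a secreted protein of the liver, averaged 530 ± 105.2 CPM in CTNNB1_MET and 85.8 ± 5.70 CPM in WT, and the carboxylate transporter Slc13a3 averaged 127 ± 8.69 CPM in CTNNB1_MET and 20.6 ± 5.82 CPM in WT (SD, n = 3 each). Oat, ornithine aminotransferase, and Rgn, regucalcin, were higher on average in CTNNB1_MET, and each missed the threshold with an adjusted p of 0.0587.

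**Figure D3:**
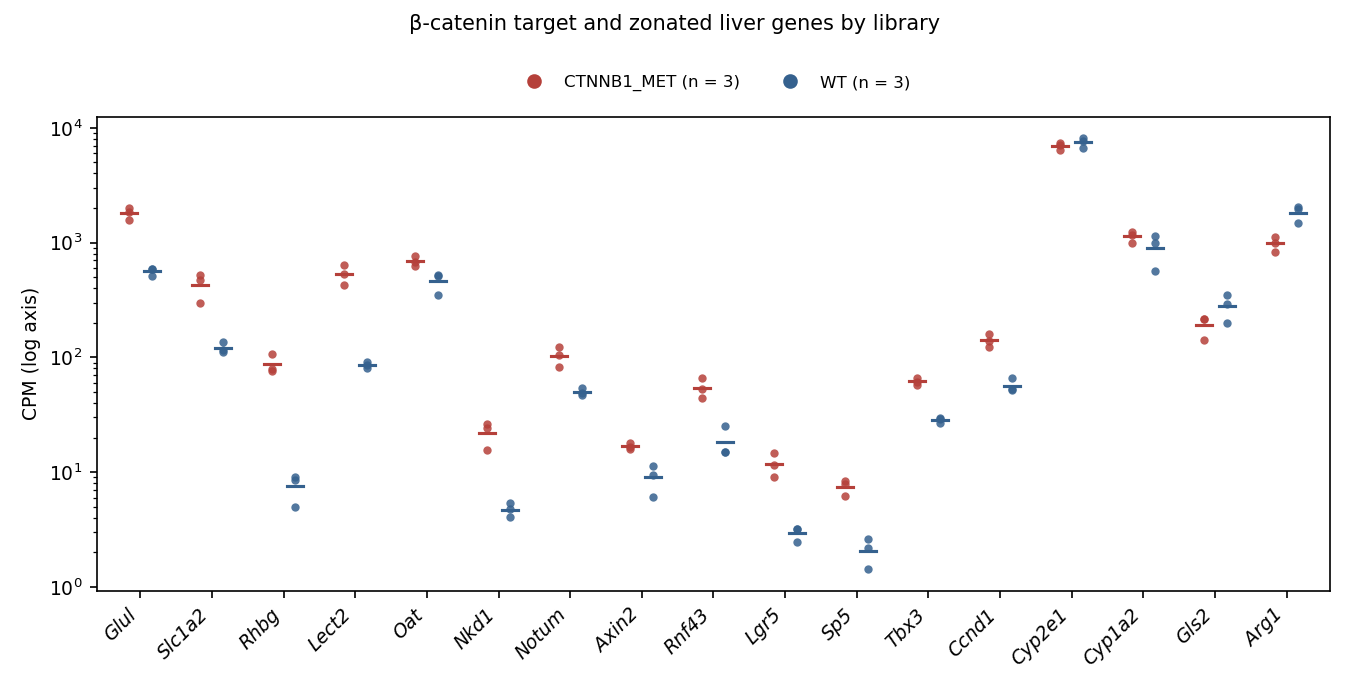
Points give CPM on a log axis in each library for 17 β-catenin target and zonated genes, CTNNB1_MET left of WT for each gene, and short lines are group means. Glul, Slc1a2, Rhbg and Lect2 stand clear of WT, while Cyp2e1 and Cyp1a2 overlap.

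The sequence before the start of these genes was searched for CTTTGA, the core of the site that TCF and LEF factors bind, on both strands. RefSeq promoter sequences of GRCm38.p6 were available for 17 of the 31 genes on the 3 lists, and 5 of the 17 (Sp5, Lef1, Tnfrsf19, Slc1a2 and Lect2) held the core within 250 bases, against 15.8% of 27025 genes with a sequence. The windows of 4 genes are shown because they belong to the clearest rises that hold a match. They are the 250 bases before an annotated start, 5′ to 3′ in the direction of transcription, for Sp5 at chr2:70474673-70474922 (plus strand), Tnfrsf19 at chr14:61037988-61038237 (minus strand), Slc1a2 at chr2:102706188-102706437 (plus strand) and Lect2 at chr13:56548539-56548788 (minus strand). The windows of Tnfrsf19 and Slc1a2 lie wholly inside the gene's annotated span, and so do 21 bases of the Lect2 window. Capitals mark CTTTGA or its reverse complement TCAAAG, and the letters are those of the reference genome, not of FVB/NJ.
Sp5: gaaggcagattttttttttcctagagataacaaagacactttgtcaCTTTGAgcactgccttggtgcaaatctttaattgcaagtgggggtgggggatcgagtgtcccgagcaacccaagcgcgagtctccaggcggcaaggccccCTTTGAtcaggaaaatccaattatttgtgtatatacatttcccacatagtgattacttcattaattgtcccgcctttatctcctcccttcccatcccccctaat
Tnfrsf19: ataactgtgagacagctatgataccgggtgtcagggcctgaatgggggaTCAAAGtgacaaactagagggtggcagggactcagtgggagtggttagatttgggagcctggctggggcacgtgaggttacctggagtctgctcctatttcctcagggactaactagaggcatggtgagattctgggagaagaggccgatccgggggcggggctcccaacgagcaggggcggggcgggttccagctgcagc
Slc1a2: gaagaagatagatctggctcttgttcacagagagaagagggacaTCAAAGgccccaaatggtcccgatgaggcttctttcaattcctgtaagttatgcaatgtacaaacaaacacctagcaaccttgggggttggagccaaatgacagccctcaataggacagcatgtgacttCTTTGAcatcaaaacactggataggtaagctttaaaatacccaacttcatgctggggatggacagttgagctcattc
Lect2: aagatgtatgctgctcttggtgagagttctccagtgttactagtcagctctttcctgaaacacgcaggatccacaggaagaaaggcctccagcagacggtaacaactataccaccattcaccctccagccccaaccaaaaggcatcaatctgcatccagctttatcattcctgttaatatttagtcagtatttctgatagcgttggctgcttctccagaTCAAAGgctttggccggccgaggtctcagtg
Sp5 and Slc1a2 each held 2 matches and Tnfrsf19 and Lect2 held 1, the one of Lect2 beginning 31 bases before the start. A match is a description of the letters only. No binding was measured.

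A list of drug-metabolising and some other genes of the same zone was examined next. Of its 16 genes 4 rose and 0 fell (median log2 fold change 0.36). Gstm2, a glutathione transferase, rose to 286, 270 and 282 CPM in CTNNB1_MET, against 77.2, 53.6 and 67.9 CPM in WT, although reads of near-identical Gstm copies may have been divided between them. Gulo, the last enzyme of vitamin C synthesis, and Car2, a carbonic anhydrase, rose by 1.27 ± 0.17 and 2.16 ± 0.33 on the log2 scale. Cyp2e1, the classic ethanol-oxidising enzyme of pericentral cells, had 6404, 7366 and 7076 CPM in CTNNB1_MET and 8076, 6640 and 7646 CPM in WT (-0.10 ± 0.23, adjusted p = 0.809). Cyp1a2 had 999, 1234 and 1175 CPM in CTNNB1_MET and 1131, 570 and 993 CPM in WT (0.34 ± 0.21, adjusted p = 0.292). Both overlapped between groups.

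Genes of the portal side were set beside them. Of 18 periportal genes 1 rose and 2 fell, and of 7 urea cycle genes 1 fell. Of 20 genes of amino acid breakdown 6 fell and 0 rose. The list medians were -0.48, -0.41 and -0.42. Called lower were 11.1%, 14.3% and 30% of these lists, against 6.22% of all tested genes. The shares of the first 2 lists rest on 2 genes and 1 gene and are not read as differing from that of all genes. Arg1, arginase, had 830, 1118 and 997 CPM in CTNNB1_MET and 2027, 1467 and 1948 CPM in WT (-0.89 ± 0.22, adjusted p = 0.011), and its call was lost without CTNNB1_MET replicate 1 (0.0616). Cbs, which starts the transsulfuration of homocysteine, had 257, 295 and 457 CPM in CTNNB1_MET and 648, 500 and 716 CPM in WT (-0.88 ± 0.18, adjusted p = 0.00356), and it passed under every alternative fit. The groups did not overlap for either gene. Cps1, which makes carbamoyl phosphate for the urea cycle, averaged 1930 ± 435 CPM in CTNNB1_MET and 3129 ± 873 CPM in WT and did not pass (adjusted p = 0.204), nor did Pck1 of gluconeogenesis (adjusted p = 0.335) or the periportal glutaminase Gls2 (0.414). Without CTNNB1_MET replicate 1, 1 gene of amino acid breakdown was called lower, and without WT replicate 3 the count was 3. The periportal falls numbered 0 without CTNNB1_MET replicate 1, CTNNB1_MET replicate 2 or WT replicate 1, and without WT replicates 1 and 2 the counts were 0 rises and 1 fall. The urea cycle falls numbered 0 without CTNNB1_MET replicate 1, and 2 without WT replicate 1, without WT replicate 2 or without both.

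Hepatocyte identity was followed through its transcription factors and secreted proteins. Called lower were 5.56% of the factors and called higher 20% of the secreted proteins, against 6.22% and 11% of all tested genes. Of 18 hepatocyte transcription factors 1 fell and 0 rose, and 2 fell without WT replicates 1 and 2, where Nr5a2, a nuclear receptor, also passed (-0.63, adjusted p = 0.0079). Onecut2 had 54.5, 47.3 and 54.2 CPM in CTNNB1_MET and 93.9, 127 and 96.3 CPM in WT (-1.02 ± 0.17, adjusted p = 0.000798). Hnf4a, the central regulator of the hepatocyte programme, stood at 900, 900 and 915 CPM in CTNNB1_MET and 959, 743 and 1090 CPM in WT (adjusted p = 0.882). Of 20 genes for secreted hepatocyte proteins 4 rose (Ahsg, Alb, Apoa1 and Trf) and 0 fell, with a list median of -0.11. The counts were 2 rises and 0 falls without CTNNB1_MET replicate 1, and 2 rises and 2 falls without WT replicate 1. Ahsg, which encodes fetuin-A, had 17443, 15085 and 13224 CPM in CTNNB1_MET and 7282, 6375 and 6776 CPM in WT (1.16 ± 0.16, adjusted p = 0.000124). Alb rose by 0.94 ± 0.20 and did not pass without WT replicates 1 and 2 (adjusted p = 0.15). The 10 most abundant genes took 22.3 ± 0.501% of counts in CTNNB1_MET and 17.0 ± 0.499% in WT.

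Gm and Rik symbols aside, the 3 largest rises with a mean log2 CPM of 3 or more were in genes with known female bias. Such genes are expressed more in female than in male mouse liver, although every library here is labelled male. A list of 20 such genes was assembled after these rises were seen, so how many of them rose is set by the choice and is not counted here. Its members summed to 956, 819 and 723 CPM in CTNNB1_MET and to 159.4, 166.5 and 169.6 CPM in WT. Cyp3a41b was not tested, several members passed the filter on low counts through their level in CTNNB1_MET, and Acot3, Prlr, Cux2 and Cyp17a1 did not pass the test. Cyp3a16, a cytochrome P450, had 115, 87.4 and 42.9 CPM in CTNNB1_MET and 0.0719, 0 and 0.257 CPM in WT (9.47 ± 0.66, adjusted p = 1.16e-06). Akr1c18, a hydroxysteroid dehydrogenase that inactivates progesterone and is not on that list, had 135, 94.6 and 80.2 CPM in CTNNB1_MET and 0, 0 and 0.513 CPM in WT (9.17 ± 0.54). Sult3a1, a sulfotransferase, had 59.7, 38.1 and 21.7 CPM in CTNNB1_MET and 0.0719, 0 and 0.192 CPM in WT (8.73 ± 0.63). The WT values correspond to a handful of reads, so these folds are imprecise in size, while the groups lie far apart in each gene. A1bg, a plasma glycoprotein gene, had 87.9, 70.7 and 37.3 CPM in CTNNB1_MET and 1.58, 0.831 and 0.577 CPM in WT (6.05 ± 0.46). Hao2, a peroxisomal oxidase, had 32.1, 20.9 and 23.3 CPM in CTNNB1_MET and 0.216, 0.0593 and 0.192 CPM in WT (7.33 ± 0.50). Cyp3a41a had no count in any WT library and averaged 2.50 ± 1.84 CPM in CTNNB1_MET, at least 38.7-fold higher when WT is set at a floor of 3 counts over its 3 libraries (0.0647 CPM). The Cyp2a, Cyp2b, Cyp2c, Cyp3a, Sult2a and Sult3a families hold near-identical copies, so the share of each copy, that of Cyp2a4 below included, is uncertain.

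The levels of these genes in the other models differed from gene to gene. Cyp3a16 averaged 81.8 CPM in CTNNB1_MET, 0.799 CPM in CTNNB1_NFE2L2_MET, 0.313 CPM in CTNNB1_NFE2L2, 0.197 CPM in NFE2L2_MET and 0.109 CPM in WT, and Akr1c18 averaged 103.3, 5.08, 0.529, 0.831 and 0.171 CPM in the same order of groups. The log2 fold change of Cyp3a16 was 6.66 ± 0.50 over CTNNB1_NFE2L2_MET, 8.0 ± 0.56 over CTNNB1_NFE2L2 and 8.61 ± 0.61 over NFE2L2_MET. Cyp2b9, a cytochrome P450, had 104, 87.4 and 108 CPM in CTNNB1_MET and 87.0, 86.9 and 97.5 CPM in NFE2L2_MET, with a log2 difference of 0.15 that did not pass (adjusted p = 0.69). Its mean was 37.6 CPM in CTNNB1_NFE2L2_MET, 1.38 CPM in CTNNB1_NFE2L2 and 0.687 CPM in WT. Cyp2a4, a testosterone hydroxylase, differed in the other direction: it averaged 290 CPM in CTNNB1_MET and 25.6 CPM in WT, but between 4605 and 8451 CPM in single libraries of the 3 models with mutant NRF2. The 17 tested male-biased genes were also listed after the rises were seen, so how many fell is likewise set by the choice. Cyp2u1, Cyp7b1, Bcl6 and Cyp4a12a were called lower and 13 were not called. The list median was -0.77, and -0.89 without WT replicates 1 and 2. Bcl6, a repressor of female-biased genes in male liver, had 10.8, 15.7 and 10.6 CPM in CTNNB1_MET and 88.9, 21.9 and 27.3 CPM in WT (-1.90 ± 0.52, adjusted p = 0.0285), and it did not pass without WT replicate 1 (0.0935) or without any single CTNNB1_MET library (0.0558 to 0.104).

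**Figure D4:**
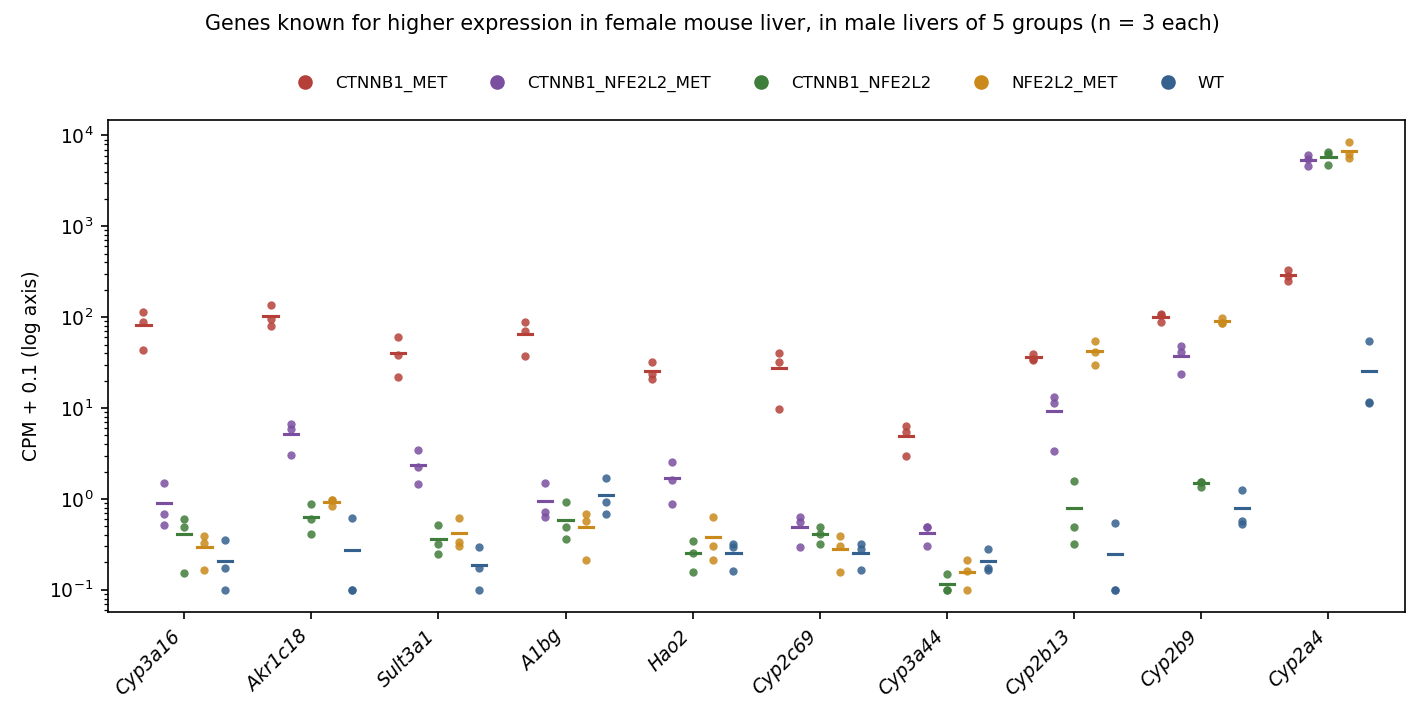
Points give CPM + 0.1 on a log axis in each library of the 5 groups for 10 genes with known female bias in mouse liver, CTNNB1_MET on the left and WT on the right for each gene, and short lines are group means. Cyp3a16, Akr1c18, A1bg and Cyp2c69 are high in CTNNB1_MET. Cyp2b9 and Cyp2b13 are high also in NFE2L2_MET and, at lower levels, in CTNNB1_NFE2L2_MET. Cyp2a4 is highest in the 3 models with mutant NRF2.

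Many fetal liver and tumour marker genes rose. Of 19 tested oncofetal and tumour markers 14 rose and 2 fell (median log2 fold change 3.64). Afp, the fetal counterpart of albumin and a serum marker of liver cancer, had 926, 800 and 669 CPM in CTNNB1_MET and 2.37, 3.14 and 9.36 CPM in WT (7.32 ± 0.60, adjusted p = 6.04e-06). Gpc3, a cell surface proteoglycan used as a marker of hepatocellular cancer, had 220, 178 and 137 CPM in CTNNB1_MET and 0.935, 1.19 and 3.34 CPM in WT (6.60 ± 0.53). Prom1, which encodes the progenitor marker CD133, had 52.7, 52.8 and 50.3 CPM in CTNNB1_MET and 0.575, 0.593 and 0.577 CPM in WT (6.46 ± 0.33). The 3 genes separated the groups without overlap and passed under every alternative fit, as did Cdh17, an intestinal cadherin (7.58 ± 0.53), and Ly6d, a surface antigen (7.06 ± 0.43). Golm1, a Golgi protein shed by liver tumours, rose 11.8-fold. The imprinted genes of the Dlk1 region of chromosome 12 rose together: Dlk1 had 62.8, 33.0 and 83.2 CPM in CTNNB1_MET and 1.29, 1.54 and 1.03 CPM in WT, and the non-coding Meg3 had 394, 248 and 196 CPM in CTNNB1_MET and 6.97, 7.95 and 7.38 CPM in WT. Rian and Mirg, which neighbour Meg3, rose by 5.24 ± 0.33 and 5.85 ± 0.52 on the log2 scale. The 2 falls were Peg3, another imprinted gene (-1.74 ± 0.23), and Spp1, osteopontin. Spp1 had 44.1, 39.0 and 43.6 CPM in CTNNB1_MET and 128, 121.3 and 48.0 CPM in WT (-1.23 ± 0.31, adjusted p = 0.0174), and without WT replicates 1 and 2 it did not pass (0.736). H19 did not pass (adjusted p = 0.338).

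Nearly all proliferation genes tested rose, at low levels. All 22 mitosis genes rose (median log2 fold change 1.99), as did 17 of 20 DNA replication genes (1.26), and 0 fell. Mki67, the marker of cycling cells, had 25.3, 19.3 and 32.2 CPM in CTNNB1_MET and 3.81, 3.08 and 2.76 CPM in WT (3.0 ± 0.23, adjusted p = 9.34e-07). Cdk1, the mitotic kinase, had 7.91, 7.65 and 6.11 CPM in CTNNB1_MET and 2.37, 2.97 and 1.86 CPM in WT (1.58 ± 0.23, adjusted p = 0.00025). Ccnb2, a mitotic cyclin, had 9.01, 6.87 and 13.0 CPM in CTNNB1_MET and 0.791, 1.36 and 1.03 CPM in WT (3.17 ± 0.41, adjusted p = 0.000138). No WT library reached the lowest CTNNB1_MET library for these genes. Uhrf1, which links DNA methylation to replication, rose by 3.12 ± 0.39 and the replicative helicase gene Mcm3 by 1.55 ± 0.20. Without CTNNB1_MET replicate 1 the replication count was 11, and without WT replicates 1 and 2 it was 10, while the mitosis count was 20 and 18. Of 16 p53 targets, cell cycle brakes and other cyclins 4 rose and 1 fell, among them Cdkn2c, an inhibitor of CDK4 and CDK6 (1.42 ± 0.17), and Bax, the cell death effector (0.52 ± 0.12), and 2 rose without WT replicates 1 and 2. In bulk tissue, a larger number of cycling cells and more RNA per cell cannot be told apart.

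Promoter sequences were available for 17 of the 22 mitosis genes, and 15 of the 17 held CCAAT, a box bound by NF-Y, on either strand within 250 bases of the start, against 37.5% of all genes. TTTGAA, the element known as CHR, stood in 7 of the 17 and in 18.3% of all genes (it shares TTTGA with CTTTGA). Ccnb2, at chr9:70421555-70421804 (minus strand), and Cdc20, the activator of the anaphase complex, at chr4:118437344-118437593 (minus strand), show the arrangement, with CCAAT in capitals.
Ccnb2: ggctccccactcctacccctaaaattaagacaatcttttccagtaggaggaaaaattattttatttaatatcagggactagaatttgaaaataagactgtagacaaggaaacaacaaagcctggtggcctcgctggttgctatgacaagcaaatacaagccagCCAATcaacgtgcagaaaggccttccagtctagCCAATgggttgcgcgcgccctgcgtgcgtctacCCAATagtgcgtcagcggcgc
Cdc20: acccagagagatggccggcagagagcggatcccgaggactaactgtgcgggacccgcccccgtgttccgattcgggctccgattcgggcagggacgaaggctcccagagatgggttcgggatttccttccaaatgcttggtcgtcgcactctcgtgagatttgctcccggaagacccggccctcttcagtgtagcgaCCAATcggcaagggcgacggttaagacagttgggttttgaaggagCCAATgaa
Ccnb2 held 3 boxes, between 87 and 21 bases before its start, and Cdc20 held 2. Cdc20 had 5.46, 6.45 and 12.1 CPM in CTNNB1_MET and 2.09, 2.08 and 1.28 CPM in WT (2.15 ± 0.39, adjusted p = 0.00208).

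Genes that ERK signalling induces as feedback rose in part. The comparison with WT cannot assign these rises to hMET or to S45Y-CTNNB1. Of 18 such genes 7 rose and 0 fell (median log2 fold change 0.57), and 4 rose without WT replicates 1 and 2. Dusp6, a phosphatase that inactivates ERK, had 97.8, 77.7 and 62.8 CPM in CTNNB1_MET and 24.0, 15.1 and 23.9 CPM in WT (1.92 ± 0.25, adjusted p = 0.000173). Spred1, an inhibitor of RAS, had 28.3, 24.7 and 24.9 CPM in CTNNB1_MET and 13.7, 13.5 and 14.5 CPM in WT (0.90 ± 0.14, adjusted p = 0.000316). Both stood apart from WT in every library. The ETS factor gene Etv4 rose by 3.04 ± 0.54 at a low level (adjusted p = 0.0565 without WT replicates 1 and 2), and Dusp4 and Dusp5 by 1.14 ± 0.26 and 2.04 ± 0.39. The immediate-early genes Fos and Ier2 did not pass (adjusted p of 0.212 and 0.132). Of 13 tested genes of the MET pathway 1 rose and 1 fell (7.69% each), against 11% higher and 6.22% lower over all tested genes. These shares rest on 1 gene each and are not read as differing from those of all genes. Hgf, the ligand, had 1.66, 1.91 and 1.62 CPM in CTNNB1_MET and 3.52, 2.79 and 5.45 CPM in WT (-1.18 ± 0.28, adjusted p = 0.009, and 0.0902 without the libraries marked as added), and Hgfac, the protease that activates it, rose by 0.53 ± 0.13 but did not pass without WT replicate 3 (adjusted p = 0.0505).

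Many interferon and antigen presentation genes rose. Of 20 interferon response genes 16 rose and 0 fell (median log2 fold change 1.27), and 14 rose without WT replicates 1 and 2. Cxcl9, a chemokine that attracts T cells, had 62.0, 37.8 and 46.6 CPM in CTNNB1_MET and 2.09, 1.19 and 2.63 CPM in WT (4.64 ± 0.48, adjusted p = 4.41e-05). Usp18, which removes ISG15 from proteins, had 31.1, 21.4 and 16.2 CPM in CTNNB1_MET and 1.87, 2.14 and 1.54 CPM in WT (3.62 ± 0.28). Neither overlapped between groups. Gbp2, a guanylate-binding protein, rose by 1.94 ± 0.24, Oas1a, an antiviral synthetase, by 2.36 ± 0.32 and Ifi27l2b by 7.69 ± 0.40, which was among the 12 largest rises. Cxcl10 rose by 2.95 ± 0.72 (adjusted p = 0.0129) and did not pass without WT replicate 2 (0.0524).

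The interferon response element, searched on both strands as GAAA, any 2 bases and GAAA again, stood within 250 bases of the start in 11 of the 15 interferon genes with a promoter sequence and in 10 of the 12 of these that rose, against 3.46% of all genes. The windows of Gbp2 at chr3:142620413-142620662 (plus strand), Cxcl10 at chr5:92348890-92349139 (minus strand) and Oas1a at chr5:120907526-120907775 (minus strand) are shown because they place it near to and far from the start, with the matched letters in capitals.
Gbp2: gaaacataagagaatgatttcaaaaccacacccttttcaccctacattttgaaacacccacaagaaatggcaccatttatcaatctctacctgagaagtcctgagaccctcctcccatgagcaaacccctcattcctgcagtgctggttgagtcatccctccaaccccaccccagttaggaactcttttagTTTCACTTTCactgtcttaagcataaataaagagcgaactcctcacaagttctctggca
Cxcl10: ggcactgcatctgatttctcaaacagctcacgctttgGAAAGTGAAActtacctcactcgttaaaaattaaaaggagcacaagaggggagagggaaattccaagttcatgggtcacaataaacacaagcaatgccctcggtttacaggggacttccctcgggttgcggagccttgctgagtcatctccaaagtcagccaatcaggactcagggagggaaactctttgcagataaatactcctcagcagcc
Oas1a: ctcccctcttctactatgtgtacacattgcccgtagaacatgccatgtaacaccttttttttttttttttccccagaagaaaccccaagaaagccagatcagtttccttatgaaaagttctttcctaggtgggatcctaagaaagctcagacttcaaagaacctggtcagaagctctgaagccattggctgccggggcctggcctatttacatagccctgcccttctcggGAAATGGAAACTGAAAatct
The match of Gbp2 begins 59 bases before the start and that of Cxcl10 213 bases before it. Oas1a held 2 overlapping matches, which begin 20 and 14 bases before its start. In the Oas1a window, 19 bases lie inside the gene's annotated span. Stat2, 1 of the 4 list members that did not pass, has a promoter that holds the element.

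Of 10 MHC class I genes 7 rose, with a median log2 fold change of 0.82. H2-D1, a class I heavy chain, had 314, 277 and 289 CPM in CTNNB1_MET and 121.45, 146 and 134 CPM in WT (1.13 ± 0.13, adjusted p = 2.42e-05), and Psmb8, a subunit of the immunoproteasome, had 93.8, 68.6 and 86.6 CPM in CTNNB1_MET and 22.8, 38.6 and 18.3 CPM in WT (1.64 ± 0.20). Copies within the H2 family share reads. Of 7 MHC class II genes 6 rose (median 1.18), among them Cd74, the invariant chain, at 120, 93.6 and 132 CPM in CTNNB1_MET and 53.4, 34.0 and 44.7 CPM in WT (1.39 ± 0.26). Without WT replicates 1 and 2 the class II count was 1. Cd274, which encodes the checkpoint ligand PD-L1, averaged 2.35 ± 1.00 CPM in CTNNB1_MET and 1.03 ± 0.467 CPM in WT (1.20 ± 0.36, adjusted p = 0.0336), a call lost without CTNNB1_MET replicate 1 (0.191), WT replicate 2 (0.0804) or WT replicate 3 (0.114).

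Markers of some immune cells were higher together with these genes, and their part in them was not tested. T and NK cell markers summed to between 10.2 and 12.9 CPM in CTNNB1_MET and between 5.46 and 6.76 CPM in WT, with 4 of 8 tested called higher, 0 of them without WT replicates 1 and 2. Cd3d, a subunit of the T cell receptor complex, had 1.04, 0.638 and 0.835 CPM in CTNNB1_MET and 0.144, 0.0593 and 0.128 CPM in WT (2.88 ± 0.52), with an adjusted p of 0.0547 without WT replicates 1 and 2. Macrophage and Kupffer cell markers summed to between 488 and 590 CPM in CTNNB1_MET and between 327 and 388 CPM in WT, with 8 of 16 called higher, 2 without CTNNB1_MET replicate 1 and 0 without WT replicates 1 and 2. Clec4f, the marker of resident Kupffer cells, overlapped between groups (adjusted p = 0.491). B and plasma cell markers had 4 of 6 called higher, at sums of 9.71 to 19.1 CPM in CTNNB1_MET and 2.12 to 3.86 CPM in WT, and 1 was called without WT replicate 3. Dendritic cell markers had 1 of 7 called higher (14.3%, against 11% of all tested genes). Their sums were 5.80 to 7.66 CPM in CTNNB1_MET and 5.93 to 7.31 CPM in WT. The 2 tested neutrophil markers had a median of -1.42 with no call. More cells of a type and more RNA per cell cannot be told apart here.

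**Figure D5:**
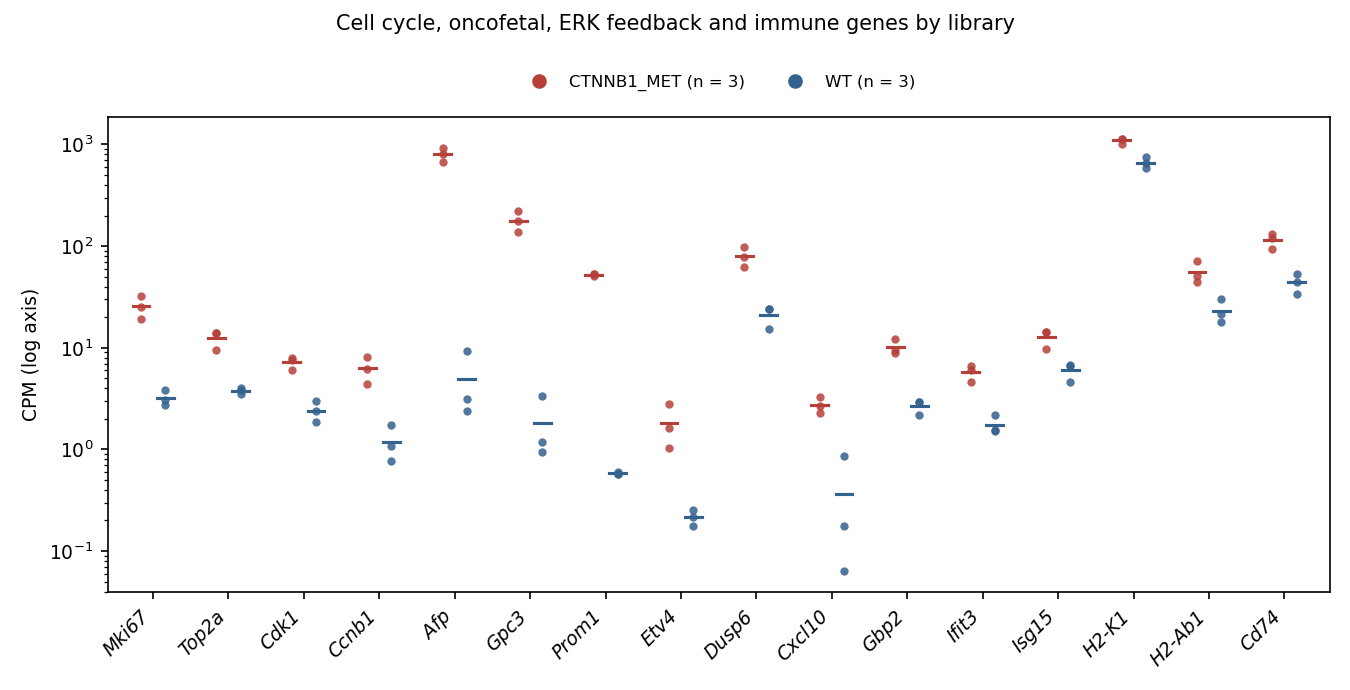
Points give CPM on a log axis in each library for cell cycle (Mki67 to Ccnb1), oncofetal (Afp to Prom1), ERK feedback (Etv4, Dusp6), interferon (Cxcl10 to Isg15) and antigen presentation genes, CTNNB1_MET left of WT, and short lines are group means. Afp is at 669 to 926 CPM in CTNNB1_MET, against 2.37 to 9.36 CPM in WT.

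The falls were fewer, and most of the largest rested on the matrix transcripts of WT replicates 1 and 2. Of the 12 largest falls 8 were Acan, Comp, Col2a1, Col11a1, Col1a1, Lox, Col6a1 and Fbln2, which encode cartilage and connective tissue matrix. Col1a1, the main fibrillar collagen, had 51.9, 55.2 and 72.2 CPM in CTNNB1_MET and 318, 326 and 54.5 CPM in WT (-1.96 ± 0.57, adjusted p = 0.0356). WT replicate 3 lay within the range of CTNNB1_MET, and without WT replicates 1 and 2 the log2 fold change was 0.13 (adjusted p = 0.913). Col2a1, the cartilage collagen, had 41.0, 39.5 and 19.3 CPM in CTNNB1_MET and 192, 192 and 46.0 CPM in WT. The fibrillar matrix and cartilage lists were assembled after their values were seen. How many members fell is therefore set by the choice and is not counted here. The 16 fibrillar matrix genes had a median log2 fold change of -1.39, and of -0.12 without WT replicates 1 and 2. For the 14 tested cartilage genes the medians were -1.83 and -0.51. Of 15 stellate cell and fibroblast markers 9 fell and 1 rose, and 2 fell without WT replicates 1 and 2. Those 2 were Ngfr, a neurotrophin receptor of stellate cells, at 0.919, 1.13 and 1.10 CPM in CTNNB1_MET and 6.04, 3.74 and 4.04 CPM in WT (-2.12 ± 0.38), and Rgs5, a marker of pericytes, whose call was lost without CTNNB1_MET replicate 1 (adjusted p = 0.0687), CTNNB1_MET replicate 3 (0.0561) or WT replicate 3 (0.0564). The rise was Reln, a secreted glycoprotein made by stellate cells, at 329, 237 and 246 CPM in CTNNB1_MET and 31.6, 31.2 and 50.1 CPM in WT (2.85 ± 0.23). Of the other 4 largest falls, Mug2, an alpha-macroglobulin family protease inhibitor, passed under every alternative: it had 11.8, 15.3 and 9.87 CPM in CTNNB1_MET and 37.3, 52.0 and 43.2 CPM in WT (-1.85 ± 0.19, adjusted p = 8.92e-06). The related pseudogene Mug-ps1 and Susd4, a complement regulator, did not pass without CTNNB1_MET replicate 1 (0.0895 and 0.0645).

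Among metabolic genes, falls were seen in several lists. Called lower were 33.3% of cholesterol synthesis genes, 25% of bile acid genes, 12.5% of NRF2 targets and 33.3% of iron genes, against 6.22% of all tested genes. Called higher were 20.8% of NRF2 targets and 8.33% of iron genes, against 11% of all tested genes. In cholesterol synthesis 6 of 18 genes fell and 0 rose (median -0.60), while without WT replicate 2 there were 4 falls and 2 rises. Sc5d, a late enzyme of the pathway, had 147, 139 and 182 CPM in CTNNB1_MET and 318, 364 and 300 CPM in WT (-1.07 ± 0.23), and Insig1, which retains the pathway's regulator SREBP in the endoplasmic reticulum, had 140, 170 and 171 CPM in CTNNB1_MET and 317, 369 and 226 CPM in WT (-0.92 ± 0.22). Their groups did not overlap, yet 0 of the 18 passed without WT replicates 1 and 2, and 2 without CTNNB1_MET replicate 1. In bile acid synthesis and transport 4 of 16 fell and 0 rose (median -0.50), and 1 fell without CTNNB1_MET replicate 1. They include Baat, which conjugates bile acids (-0.75 ± 0.18, adjusted p = 0.0103, 0.0507 without CTNNB1_MET replicate 1), and Abcc3, a basolateral exporter (-1.13 ± 0.21, adjusted p = 0.00173). Cyp7a1, the rate-limiting enzyme, overlapped between groups (adjusted p = 0.538). Of 24 NRF2 targets 5 rose and 3 fell, with a median of -0.12, and 0 rose without WT replicates 1 and 2. Nqo1, a quinone reductase, averaged 9.14 ± 1.78 CPM in CTNNB1_MET and 5.38 ± 0.489 CPM in WT (0.76 ± 0.18, adjusted p = 0.0523 without CTNNB1_MET replicate 2), while Me1, malic enzyme, had 66.0, 67.4 and 79.7 CPM in CTNNB1_MET and 161, 107 and 166 CPM in WT (-1.03 ± 0.18). Of 12 iron genes 4 fell and 1 rose, with Hamp, which encodes the iron hormone hepcidin, at 418, 762 and 937 CPM in CTNNB1_MET and 2620, 1762 and 1852 CPM in WT (-1.56 ± 0.45, adjusted p = 0.0306). Without CTNNB1_MET replicate 1, 0 of the iron genes passed, nor did any without WT replicates 1 and 2. Of 17 genes of the circadian clock 0 rose and 0 fell (median 0.05). Its core gene Arntl, not called, had 1.59, 2.62 and 1.46 CPM in CTNNB1_MET and 3.02, 0.890 and 14.1 CPM in WT. There WT replicate 3 stood apart from the other libraries.

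β-catenin targets were last set beside the other models. Glul averaged 1802 CPM in CTNNB1_MET, 2850 CPM in CTNNB1_NFE2L2_MET, 3921 CPM in CTNNB1_NFE2L2, 313 CPM in NFE2L2_MET and 567 CPM in WT. Its log2 fold change was -1.12 ± 0.15 over CTNNB1_NFE2L2 (adjusted p = 2.99e-05) and 2.53 ± 0.15 over NFE2L2_MET (adjusted p = 4.61e-08). Nkd1 differed likewise, by -2.47 ± 0.20 and 3.34 ± 0.24. Over all tested genes, 17.2% were higher and 17.9% lower in CTNNB1_MET than in CTNNB1_NFE2L2, 6.96% and 7.36% against NFE2L2_MET, and 15.4% and 18.4% against CTNNB1_NFE2L2_MET. Of the 10 pericentral glutamine and ammonium genes, 2 were higher and 6 lower in CTNNB1_MET than in CTNNB1_NFE2L2, and 9 were higher and 1 lower than in NFE2L2_MET. Of the 10 feedback inhibitors 2 were higher and 4 lower than in CTNNB1_NFE2L2, and 7 higher and 0 lower than in NFE2L2_MET. Of the 11 factors and receptors 1 was higher and 4 lower than in CTNNB1_NFE2L2, and 7 higher and 0 lower than in NFE2L2_MET. All 22 mitosis genes were lower in CTNNB1_MET than in CTNNB1_NFE2L2, and 18 were higher than in NFE2L2_MET. Of 18 periportal genes 14 were higher than in CTNNB1_NFE2L2 and 0 lower, while against NFE2L2_MET 0 were higher and 4 lower. Over all genes 2424 were higher and 2530 lower than in CTNNB1_NFE2L2, a split that total-count scaling moves to 1300 and 4043 with a median of -0.18. The split against NFE2L2_MET, 981 higher and 1037 lower, becomes 1434 and 682 with a median of 0.10. The comparisons with these models share the CTNNB1_MET libraries with the comparison against WT.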

How the data were processed

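PolyA RNA of 15 liver libraries, 3 in each of 5 groups, was sequenced. Reads were trimmed with Trimmomatic and aligned with STAR to mm10, per the submitters' processing notes, versions not given in the sources used here. The deposited files hold raw counts per gene. The unstranded column was used, since sense and antisense columns were near equal, and rows that name no gene were dropped. Overlapping genes on opposite strands and near-identical copies are therefore uncertain.

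All 15 libraries were fitted with edgeR 4.0.16 (R 4.3.3) by group, with TMM scaling, filterByExpr and the robust quasi-likelihood F test, and p-values were Benjamini-Hochberg adjusted over 14098 genes, with 0.05 as the threshold. Every adjusted p is from this test unless another tool is named. The standard error is the log2 fold change divided by the root of F. Alternatives were DESeq2 1.42.0, other scaling and filters, 1 strand, fewer libraries and a term for libraries marked as added. The script was tested on simulated data. Named genes were Ctnnb1, Met and Nfe2l2, the 12 genes that rose most and the 12 that fell most, the 4 members of each of 44 lists with the smallest p, and well-known members; other genes, and the sex-biased, matrix, serine and lipid uptake lists, were chosen after their values were seen. The members and lists were chosen with earlier results of these data known.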

Additional observations from a re-analysis of the deposited data

How the results depend on the processing

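For CTNNB1_MET against WT, 2429 genes were called with all libraries. The count was 1505 in a fit of the 6 libraries alone, 1059 with a change of at least 2-fold, and 1443 without WT replicates 1 and 2, a setting chosen after seeing the data. Leaving out each library gave 1294 (without CTNNB1_MET replicate 1) to 2249. Other scaling, filters, the strand column, DESeq2 (2761 calls) and the treatment of added libraries kept the count within 1.5 times. Against CTNNB1_NFE2L2, 4954 calls became 1882 at 2-fold and 3721 to 4421 when a library was left out. Against NFE2L2_MET, 2018 became 845 at 2-fold and 1343 (without CTNNB1_MET replicate 2) to 1654. Against CTNNB1_NFE2L2_MET, a contrast added after seeing the data, 4765 became 1814 at 2-fold and 3630 to 4463, and total-count scaling moved its 2168 higher and 2597 lower genes to 1038 and 4970. Across 16 settings, 75 of the 162 called named genes passed wherever they were tested. These 75 include Cyp3a41a, Sult2a1 and Ngfr, which were tested in 14, 13 and 15 of the settings. Col1a1 turned to 0.13 without WT replicates 1 and 2; the cause was not tested. Sign changes of genes called in neither fit were not counted, and 10 named genes had one. Of 704 recomputed list counts 162 moved by over 1.5 times. No paired analysis was possible because no label links a library of 1 group to a library of another.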

Other observations

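Genes of serine and glycine metabolism moved in both directions. They were listed after their values were seen, so how many rose or fell is set by the choice and is not counted here. The 12 listed had a median log2 fold change of -0.13, and of 0.067 without WT replicates 1 and 2. Phgdh, which starts serine synthesis, had 91.5, 43.7 and 43.8 CPM in CTNNB1_MET and 5.39, 4.57 and 3.14 CPM in WT (log2 fold change 3.77 ± 0.49, adjusted p = 0.000293). Psat1, the next enzyme, had 24.6, 15.1 and 14.04 CPM in CTNNB1_MET and 5.39, 6.47 and 3.66 CPM in WT (1.79 ± 0.33). Both groups stood apart in every library. Gldc, which breaks down glycine, fell (-1.03 ± 0.30), but did not pass without WT replicate 3 (adjusted p = 0.128).

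Genes of lipid uptake and storage were also listed after their values were seen. How many of them rose is thus set by the choice and is not counted here. The 14 tested had a median log2 fold change of 1.02, and of 0.71 without WT replicates 1 and 2. Lpl, the lipase that frees fatty acids from lipoproteins, had 91.1, 79.8 and 96.9 CPM in CTNNB1_MET and 12.2, 9.31 and 15.2 CPM in WT (2.87 ± 0.29). Abcd2, a peroxisomal transporter of fatty acids, had 72.1, 59.6 and 51.3 CPM in CTNNB1_MET and 5.32, 6.76 and 3.34 CPM in WT (3.56 ± 0.22). Neither gene overlapped between groups.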
